A study of Canis lupus familiaris with 10 samples.

Results

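Voltage-gated and calcium release channels were compared between glaucomatous and healthy canine retinas. The channel genes were taken from the array's gene symbols: those that start with KCN, other than KCNJ10, together with the CACNA, CACNB, CACNG, HCN, RYR and ITPR genes and the SCN genes whose symbols end in A or B. Only probe sets with a single symbol were used. This gave 117 channel genes on 193 probe sets, of 15115 genes on 29254 probe sets with a single symbol. By ion, 78 of the genes were potassium, 27 calcium, 9 sodium and 3 mixed cation channel genes. Neural retina came from 1 eye of each dog, without pooling, and each retina was hybridized to 1 Affymetrix Canine genome 2.0 array. The glaucoma group held 5 dogs with spontaneous primary glaucoma, closed iridocorneal angles and elevated intraocular pressure, all treated with latanoprost and brinzolamide, drugs that lower the pressure. By the sample labels these were a Shiba Inu of 5 years, a Shiba Inu of 14 years, a Basset Hound of 5 years, a Basset Hound of 7 years and a Dalmatian of 9 years, called glaucoma 1 to 5. The healthy group held 5 Beagles of 4 years with open angles and no ophthalmic findings, called healthy 1 to 5. The dogs with glaucoma were all older than the Beagles, of other breeds and on medication, so glaucoma cannot be told apart from breed, age or treatment here.

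Voltage-gated channels open or close with the membrane potential and set how neurons fire and release transmitter. Potassium channels restore and hold the resting potential, sodium channels carry the action potential along ganglion cell axons, and calcium channels couple depolarization to transmitter release at photoreceptor, bipolar and ganglion cell synapses. The pore-forming subunits carry the current, accessory subunits move them to the membrane and tune their gating, and ryanodine and IP3 receptors let calcium out of the endoplasmic reticulum.

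Values are log2 RMA intensities, in which a difference of 1 is a 2-fold change, and differences are glaucoma minus healthy. Levels of different probe sets are not comparable with each other, so each gene is compared only with itself between retinas. Intensity medians ranged from 77.1 to 80.7 per array. Photoreceptor transcripts were abundant: the rod marker list, 10 genes on the array, had a summed level (the log2 of the summed intensities) of 15.70 to 16.23 in the healthy retinas. A pair of retinas stood apart from the rest of their groups. In glaucoma 1 the rod sum was 12.92, against 15.14 to 16.04 in the other glaucomatous retinas, and the 11 retinal pigment epithelium (RPE) markers lay at a median of 3.0 above their healthy means. In healthy 4 the RPE markers lay at a median of 2.53 above, and in the other 8 retinas between -0.63 and 0.29. Channel results that rest on either retina are therefore given with and without it, but KCNJ14 and the marker counts only with all retinas. Markers of inner retinal neurons also differed between the groups. Of the retinal ganglion cell markers, 7 of the 10 tested were lower. SNCG was counted as higher by its brightest probe set (2.52, adjusted p = 0.000195), while its other probe set was lower (-2.57, adjusted p = 0.000232), so its direction is unsettled. The list's sum, with the brightest SNCG probe set in it, was 12.88 to 13.58 in glaucoma against 14.22 to 14.99 in health. The amacrine sum was 8.70 to 10.69 against 11.61 to 12.07, with 4 of 4 tested markers lower. The bipolar sum was 9.62 to 11.94 against 13.01 to 13.35, with 3 of 4 tested markers lower. Horizontal cell markers were lower in 2 of 2. Higher were 4 of 5 microglial, 2 of 3 astrocyte, 1 of 6 Müller cell, 2 of 5 pericyte and 2 of 2 lymphocyte markers. Limma called 0 of 3 tested endothelial, 0 of 2 skeletal muscle and 0 of 1 oligodendrocyte markers, before adjustment too. So few tested markers say little about those cells. The pericyte list was mixed, with PDGFRB (0.59) and DES (0.74) higher, ACTA2 (-1.04) not passing and a median difference of -0.12 over the 5 tested. RGS5 of that list was below the filter, and in limma with no filter it was lower (-1.04, adjusted p = 0.0317). Of the 12 markers called higher, 7 (AQP4, CD2, CD3E, CD68, CSF1R, GFAP and PDGFRB) had fewer than 2 healthy retinas above 7, and of the 19 called lower TFAP2A and ONECUT2 had fewer than 2 glaucomatous ones, so they entered the test through the brighter group. Both lymphocyte markers are among them. The T cell marker CD3D was below the filter, and in limma with no filter it was higher (0.60, adjusted p = 0.0487). The B cell markers CD79A (0.09) and MS4A1 (0.03) were also below the filter and did not pass without it. Fewer cells of a type and less RNA per cell cannot be told apart in whole retina, and the part these markers had in the channel results was not tested.

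Probe sets above 7 in 2 or more retinas were tested with limma, and the brightest tested probe set of a gene, by its mean over the 10 retinas, stood for that gene. On this rule 32 of the 117 channel genes were tested, and 85 had no tested probe set. Channel transcripts were lower in the glaucomatous retina for 11 genes, in 8 of them at least 2-fold, and higher for 0, at an adjusted p under 0.05 (Benjamini-Hochberg). Among all 7900 tested genes 8.65% were lower and 8.04% higher. The 11 were 6 of 20 tested potassium channel genes and 5 of 10 tested calcium channel genes. In 10 of the 32 every glaucomatous retina was below every healthy retina, which was so for 7.84% of all tested genes. In 0 was every glaucomatous retina above, but for this direction the share over all tested genes was not counted. The median difference was -0.32 over the 32 channel genes and -0.007 over all tested genes. These counts do not describe the 117 genes, since KCNN2, KCNS3, RYR2, CACNG3, CACNB2 and KCNK1 had fewer than 2 glaucomatous retinas above 7 and entered the test through the healthy retinas, while SCN3B and HCN3 entered through the glaucomatous ones. Over all 117 genes with no filter the median difference was -0.03, against 0.03 over all 15115 genes. Before adjustment limma gave 13 lower and 1 higher, KCNB2, at a p under 0.05. The shares of all tested genes before adjustment were not counted, so the percentages above do not compare with these counts. An exact Wilcoxon rank sum test gave 10 lower and 1 higher before adjustment and 0 after it, since its smallest possible p with 5 against 5 retinas, 0.00794, became 0.0534 when adjusted.

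**Figure D1:**
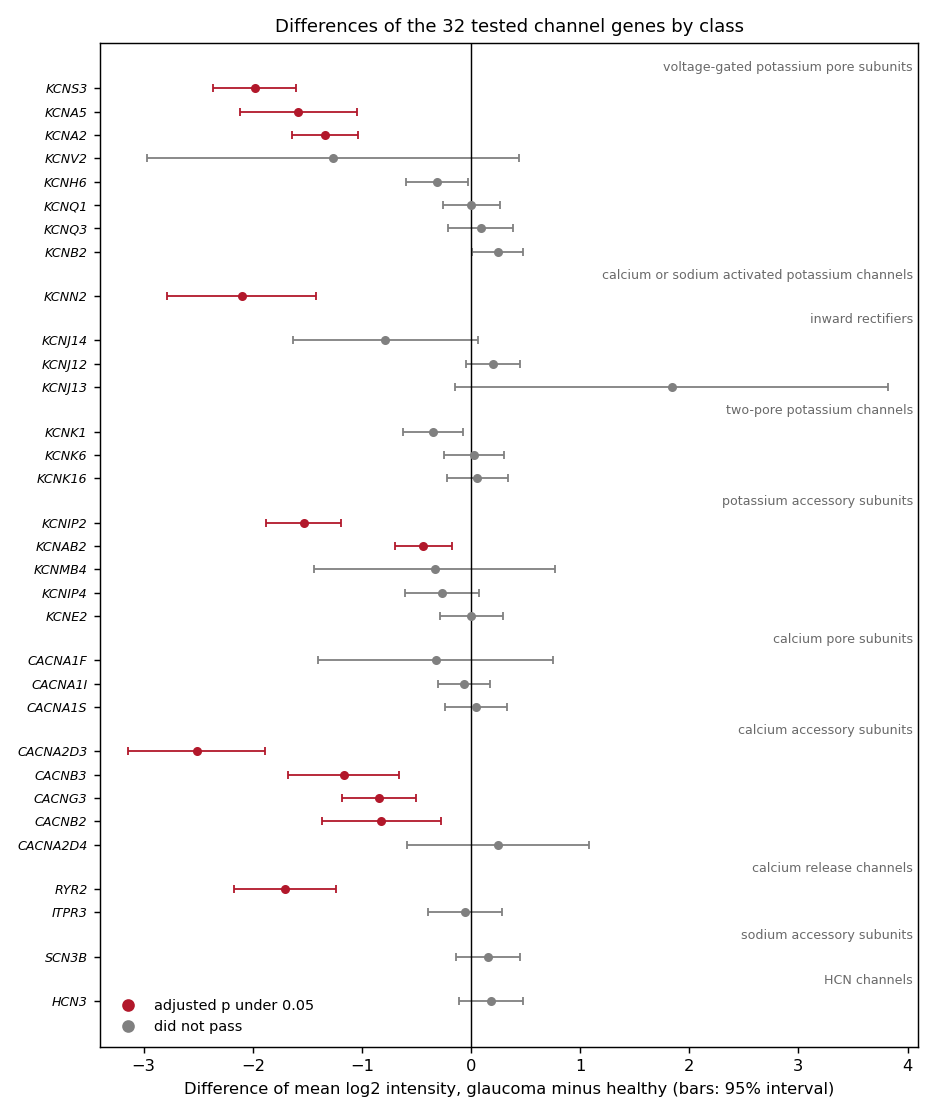
Difference of mean log2 RMA intensity, glaucoma minus healthy, for the 32 tested channel genes, 5 retinas per group, grouped by channel class on the vertical axis, with 95% confidence intervals as bars and red points for an adjusted p under 0.05. The 11 red points lie below 0, from -0.44 for KCNAB2 to -2.51 for CACNA2D3, and the longest bars belong to KCNJ13 and KCNV2.

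Among the voltage-gated potassium channels, 3 of the 8 tested pore genes fell: KCNS3, KCNA5 and KCNA2. KCNS3 encodes a silent subunit that forms no channel by itself and modifies the delayed rectifiers of the Kv2 family. In order of the dogs, it lay at 5.69, 5.58, 5.42, 5.34 and 5.55 in glaucoma and at 7.85, 7.64, 7.83, 7.06 and 7.12 in health. The glaucomatous retinas spanned a narrow range well below the lowest healthy one. The difference was -1.98 (SE 0.17, adjusted p = 7.47e-05), a 3.95-fold lower level. KCNA5, the delayed rectifier Kv1.5, lay at 7.69, 7.76, 7.99, 7.30 and 6.67 in glaucoma and at 9.27, 9.21, 8.69, 9.40 and 8.78 in health. Its difference was -1.58 (SE 0.24, adjusted p = 0.00155), with the Dalmatian lowest and no overlap. KCNA2 encodes Kv1.2, a channel of axons beside the nodes of Ranvier. It lay at 6.53, 7.02, 6.74, 6.88 and 7.06 in glaucoma and at 8.52, 8.23, 8.05, 8.17 and 7.96 in health, a difference of -1.34 (SE 0.14, adjusted p = 0.000166), which its other probe sets did not share (0.11 and -0.24). The other 5 tested pore genes did not pass: KCNV2 (-1.26), KCNH6 (-0.31), KCNQ1 (0.00), KCNQ3 (0.09) and KCNB2 (0.24, adjusted p = 0.146). KCNH6 passed without glaucoma 2 (-0.42, adjusted p = 0.0219), without the Shiba Inus (-0.37, adjusted p = 0.0459) and with age as a covariate (-0.55, adjusted p = 0.0262). For the M-current subunit gene KCNQ3 the 95% interval of the difference was -0.21 to 0.38.

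KCNN2, the small-conductance calcium-activated channel SK2 that carries the after-hyperpolarization, was the 1 tested gene among 8 calcium or sodium activated potassium channel genes. It lay at 7.18, 6.12, 6.79, 5.63 and 5.32 in glaucoma and at 8.46, 8.28, 8.23, 8.41 and 8.17 in health. The healthy values lay within 0.3 of each other, whereas glaucoma 1 was nearest to them and the Dalmatian farthest. The difference was -2.10 (SE 0.31, adjusted p = 0.00119), 4.29-fold.

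Of 5 tested potassium accessory genes, KCNIP2 and KCNAB2 fell. KCNIP2 encodes KChIP2, a calcium-binding partner of the A-type Kv4 channels. It lay at 7.74, 7.74, 8.16, 8.01 and 7.36 in glaucoma and at 9.54, 9.24, 9.07, 9.51 and 9.32 in health, a difference of -1.53 (SE 0.16, adjusted p = 0.000159). Its probe sets disagreed in size: another tested one differed by -0.09 (adjusted p = 0.643), and one too dim to be tested by -1.28. KCNAB2, the β2 subunit of Kv1 channels, lay at 6.97, 7.41, 7.28, 7.50 and 7.16 in glaucoma and at 7.81, 7.80, 7.54, 7.60 and 7.75 in health. The groups did not overlap but lay close together, with a difference of -0.44 (SE 0.12, adjusted p = 0.0284). The call was lost without glaucoma 5, healthy 1, healthy 2 or healthy 5, with adjusted p-values from 0.0606 to 0.0789. KCNIP4 (-0.27), KCNE2 (0.00) and KCNMB4 (-0.33) did not pass.

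The calcium channel genes that fell were 4 of 5 tested accessory genes and 1 of 2 tested release channel genes. CACNA2D3 showed the largest difference of the 32 channel genes. It encodes α2δ-3, an extracellular subunit that brings calcium channels to presynaptic terminals. The probe set lay at 7.23, 7.32, 7.84, 7.04 and 5.92 in glaucoma and at 9.78, 9.61, 9.48, 9.44 and 9.60 in health. The healthy retinas were nearly alike, the Dalmatian was lowest and the groups were far apart. The difference was -2.51 (SE 0.29, adjusted p = 0.000251), a 5.71-fold lower level. Its other tested probe sets differed by -2.10 and -0.79, with adjusted p-values of 0.000232 and 0.00023.

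CACNB3 and CACNB2 encode cytoplasmic β subunits, which bind the pore and carry it to the membrane. CACNB3 lay at 8.02, 6.95, 7.01, 6.58 and 7.27 in glaucoma and at 8.57, 8.22, 8.20, 8.49 and 8.18 in health. The difference was -1.17 (SE 0.23, adjusted p = 0.00615), and glaucoma 1 was the retina closest to the healthy range. With age as a covariate the CACNB3 call was lost (adjusted p = 0.0634). CACNB2 lay at 5.54, 6.03, 7.04, 6.35 and 6.03 in glaucoma and at 6.73, 7.38, 6.81, 6.98 and 7.21 in health. Here the groups overlapped, because the Basset Hound of 5 years was within the healthy range, and the difference was -0.82 (SE 0.25, adjusted p = 0.043). That call was lost when any 1 of 9 retinas was left out, every one but glaucoma 3, with adjusted p-values from 0.0517 to 0.108. CACNG3, although named as a calcium channel γ subunit, belongs to the proteins that carry AMPA-type glutamate receptors to synapses. It lay at 6.39, 7.21, 6.67, 6.41 and 6.82 in glaucoma and at 7.66, 7.44, 7.48, 7.66 and 7.48 in health, a difference of -0.85 (SE 0.15, adjusted p = 0.00427).

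RYR2, the ryanodine receptor that amplifies calcium entry by releasing stored calcium, was the release channel gene that fell. It lay at 5.40, 5.50, 5.83, 4.85 and 4.68 in glaucoma and at 7.22, 6.79, 6.73, 6.92 and 7.12 in health. The difference was -1.70 (SE 0.21, adjusted p = 0.000445), and every glaucomatous retina was below every healthy one. It was tested only because healthy 1 and healthy 5 exceeded 7, and without either of them it had no tested probe set. ITPR3, an IP3 receptor, differed by -0.06 (95% interval -0.39 to 0.28, adjusted p = 0.835). The 3 tested pore genes did not pass either: CACNA1F (-0.33), CACNA1I (-0.07) and CACNA1S (0.05). For the T-type channel CACNA1I the interval was -0.31 to 0.17 and for CACNA1S, best known from skeletal muscle, -0.24 to 0.33.

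**Figure D2:**
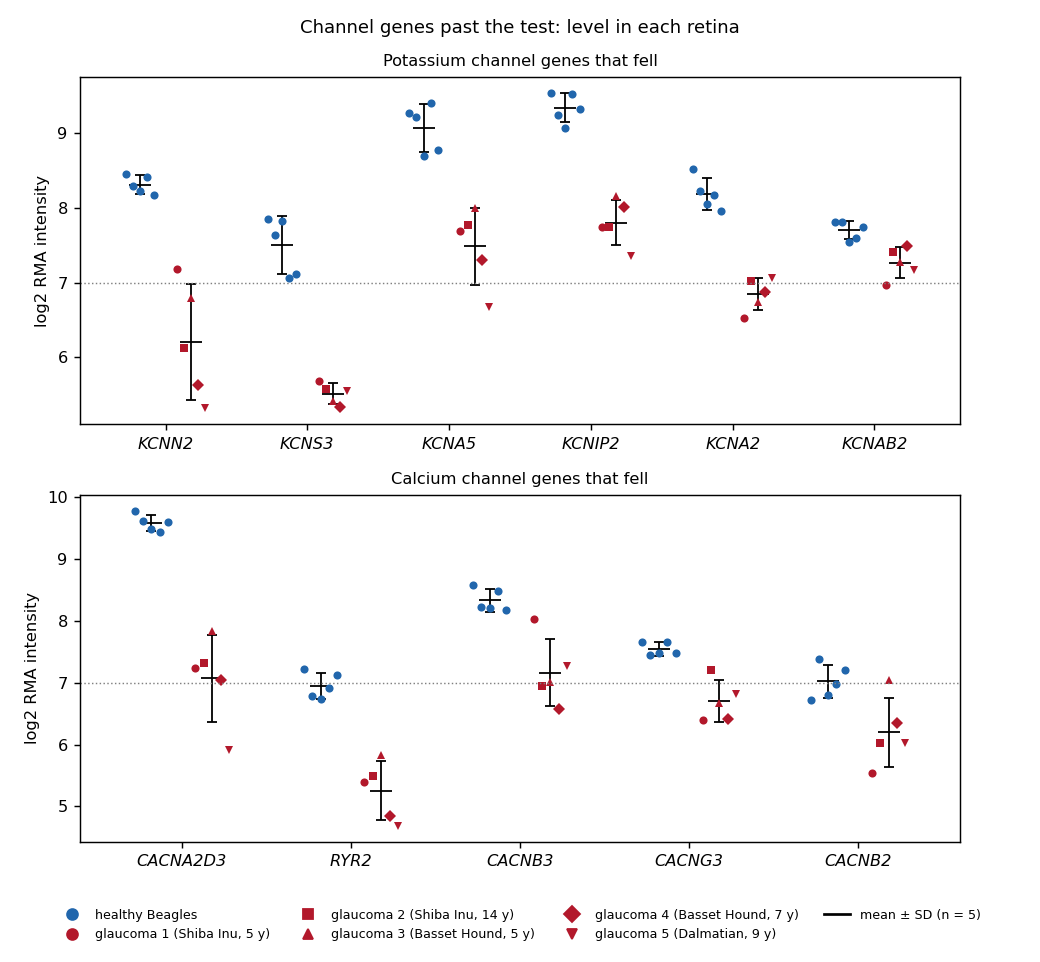
Log2 RMA intensity of the 11 channel genes that fell in each of the 5 glaucomatous and 5 healthy retinas (points), with a symbol for each glaucoma dog and the group mean and SD as line and bar. The groups are separate for every gene but CACNB2, in which 1 glaucomatous retina reaches 7.04, inside the healthy range of 6.73 to 7.38.

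Each glaucomatous retina took part in these differences. Set against the healthy means, the median of the 11 genes was -1.48, -1.39, -1.18, -1.75 and -1.95 in glaucoma 1 to 5 and between -0.13 and 0.20 in the healthy retinas, which describes the genes chosen and tests nothing. The 2 Shiba Inus, the Basset Hound of 7 years and the Dalmatian were below the lowest healthy retina in 11 of the 11 genes, and the Basset Hound of 5 years in 10. Of the 11 genes 8 had further probe sets, 12 in all. In 11 of these 12 the difference was negative, and 4 passed the test with no filter. Several differed much less than the probe set that stood for the gene. For KCNA2 the others differed by 0.11, the 1 positive value of the 12, and by -0.24 (adjusted p = 0.12 with no filter), against -1.34. Those of RYR2 (-0.22), KCNA5 (-0.42) and CACNB3 (-0.15) and 1 of CACNB2 (-0.03) also differed less.

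**Figure D3:**
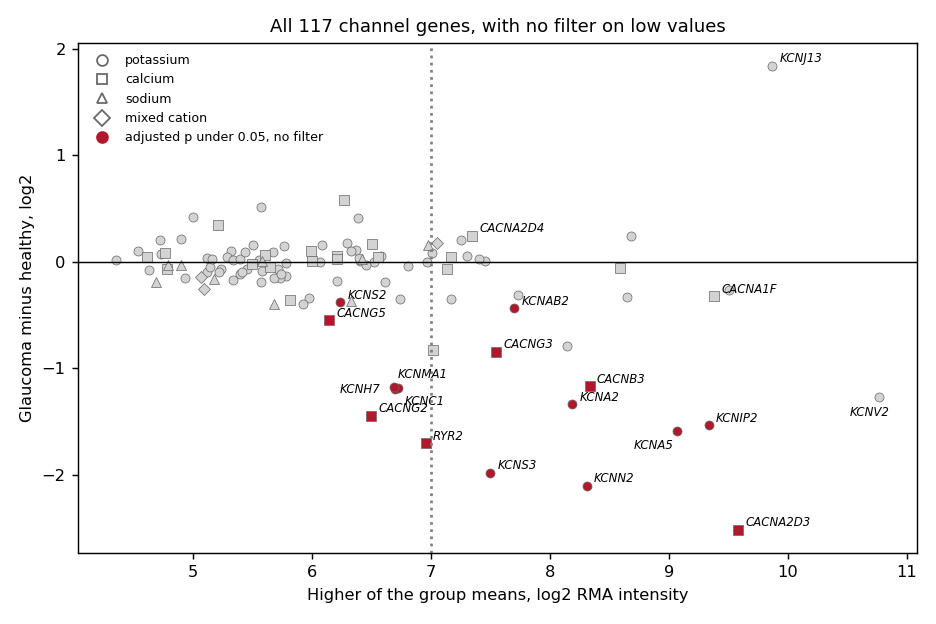
Difference of mean log2 RMA intensity against the higher of the 2 group means for all 117 channel genes with no filter, 5 retinas per group, each gene shown by its brightest probe set. The dotted line marks 7, red points have an adjusted p under 0.05, symbols give the ion, and the dim genes left of the line lie mostly near 0.

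Most channel genes were dim on this array, and 88 of the 117 had both group means under 7. With all probe sets tested and no filter, limma called 16 of the 117 lower and 0 higher, where 4.91% of all genes were lower and 4.53% higher. Before adjustment the channel counts were 25 and 3, for which no share over all genes was counted. These 16 were 10 of the 11 genes above, without CACNB2 (adjusted p = 0.0602), and 6 genes that the filter had left out. Among the 6 was CACNG2, or stargazin, another AMPA receptor partner, at 4.61, 5.27, 5.20, 4.97 and 5.20 in glaucoma and at 6.55, 6.34, 6.49, 6.52 and 6.59 in health. Its difference was -1.45 (SE 0.12, adjusted p = 0.000102). KCNMA1, the large-conductance BK channel, lay at 5.33, 5.50, 6.02, 5.31 and 5.40 against 6.67, 6.76, 6.66, 6.58 and 6.75, a difference of -1.17 (adjusted p = 0.000336). The healthy KCNMA1 values were almost the same in all 5 Beagles. KCNH7, an ether-a-go-go related channel, lay at 5.35, 5.17, 5.87, 5.66 and 5.63 against 6.51, 6.44, 7.09, 6.73 and 6.83, a difference of -1.18 (adjusted p = 0.000974). KCNC1, the Kv3.1 channel of fast-firing neurons, lay at 5.46, 5.75, 5.72, 5.37 and 5.24 against 7.26, 6.87, 6.92, 5.97 and 6.48, a difference of -1.19 (adjusted p = 0.00583). In KCNC1 the healthy retinas spread over more than 1 log2 unit, with healthy 4 lowest, and still lay above every glaucomatous one. CACNG5 differed by -0.55 (adjusted p = 0.012) and the silent subunit gene KCNS2 by -0.38 (adjusted p = 0.0135). On the other side, KCNE3, an accessory subunit, was the 1 gene of the 117 higher in every glaucomatous retina, a share not counted over all genes. KCNE3 lay at 6.76, 6.13, 6.30, 6.26 and 6.47 against 5.87, 6.05, 6.11, 5.80 and 6.01. It did not pass the test (0.42, adjusted p = 0.0606). The count of 0 higher also depended on the probe set that stood for ITPR2, an IP3 receptor gene. Its brightest differed by 0.35 (adjusted p = 0.286 in limma with no filter). A dimmer one was higher by 0.56 (adjusted p = 0.0256), and another differed by 0.02.

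Sodium channel genes gave no call by limma in either direction, with or without the filter (1 of 9, SCN3A, was lower at an unadjusted p under 0.05 with no filter). The 7 sodium pore genes had no tested probe set. With no filter their differences ran from -0.39 for SCN3A (adjusted p = 0.0883) to 0.03 for SCN4A, the skeletal muscle channel. SCN8A, the channel of axon initial segments and nodes, differed by -0.36 (95% interval -0.77 to 0.04, adjusted p = 0.289). The accessory gene SCN3B differed by 0.16 (95% interval -0.14 to 0.45, adjusted p = 0.446), and SCN2B, which was below the filter, by 0.01. Among the HCN genes, whose channels open on hyperpolarization and shape photoreceptor responses, HCN3 differed by 0.18 (95% interval -0.11 to 0.47, adjusted p = 0.374). HCN2 (-0.26) and HCN4 (-0.15) were below the filter and did not pass without it.

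The inward rectifiers and two-pore channels, which hold the resting potential, gave no call in 3 tested genes each. KCNK1 came nearest, at -0.35 (adjusted p = 0.0773), and passed when glaucoma 1 was left out (-0.44, adjusted p = 0.0147). KCNK6 (0.03), KCNK16 (0.06) and KCNJ12 (0.21) had small differences.

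Several channel genes, among them genes of photoreceptors and of the RPE, had single retinas far from the rest of their group. KCNV2, a silent subunit of photoreceptor potassium channels, lay at 6.27, 10.61, 11.13, 10.53 and 8.97 in glaucoma and at 10.14, 10.93, 10.64, 11.03 and 11.10 in health. The lowest values were those of glaucoma 1 and the Dalmatian, and the other glaucomatous retinas were inside the healthy range or just above it. The difference was -1.26 (95% interval -2.97 to 0.44, adjusted p = 0.286), and without glaucoma 1 it was -0.46 (adjusted p = 0.441). CACNA1F, the Cav1.4 pore of photoreceptor synapses, lay at 6.91, 9.95, 9.81, 9.52 and 9.08 in glaucoma and at 9.29, 9.26, 9.50, 9.12 and 9.75 in health. Only glaucoma 1 was far below, and the difference of -0.33 (adjusted p = 0.686) became 0.21 (adjusted p = 0.476) without it. CACNA2D4, the α2δ subunit that works with Cav1.4, lay at 5.69, 7.74, 7.56, 8.17 and 7.55 in glaucoma and at 6.89, 7.04, 7.29, 7.16 and 7.11 in health. Glaucoma 1 was below the healthy range and the other 4 glaucomatous retinas were above it. With all retinas the difference was 0.25 (adjusted p = 0.692), and without glaucoma 1 it was 0.66 (adjusted p = 0.011). The other tested CACNA2D4 probe sets did not share this pattern. With all retinas they differed by -0.05 (adjusted p = 0.904) and 0.003 (adjusted p = 0.99), with 1 and 0 glaucomatous retinas above the healthy range. KCNJ14, an inward rectifier, lay at 6.08, 8.14, 8.0, 7.54 and 7.04 against 7.39, 8.45, 8.37, 7.81 and 8.70, a difference of -0.79 (adjusted p = 0.185). Beside these values, the rod marker sum was 12.92 in glaucoma 1, 15.14 in the Dalmatian and 15.95 to 16.04 in the other 3 glaucomatous retinas, and limma called 0 of 10 rod markers (1 lower before adjustment). The cone marker sum was 12.06 in glaucoma 1, 11.86 in the Dalmatian and 13.35 to 14.56 in the other 3, against 14.69 to 14.98 in health, with 3 of 8 tested markers lower. The part of rods and cones in the values of these channels was not tested.

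KCNJ13 and KCNMB4 had single retinas far above the rest. KCNJ13 encodes Kir7.1, a potassium channel of the RPE's apical membrane. It lay at 12.42, 8.54, 8.31, 9.54 and 10.55 in glaucoma and at 7.54, 7.47, 7.06, 10.95 and 7.14 in health. Every glaucomatous retina exceeded 4 of the healthy ones, but healthy 4 was second only to glaucoma 1. The difference was 1.84 (95% interval -0.14 to 3.82, adjusted p = 0.184). It was 2.57 (adjusted p = 0.0451) without healthy 4, 1.20 (adjusted p = 0.314) without glaucoma 1 and 1.93 (adjusted p = 0.0166) without both. The RPE marker sum was 15.64 in glaucoma 1 and 15.15 in healthy 4, and in the others it was 12.39 to 14.58 in glaucoma and 11.77 to 12.39 in health, with 0 of 10 tested markers called by limma (2 higher before adjustment). The paper states that the neural retina was isolated but does not say how completely the RPE was removed. The part of RPE in KCNJ13 was not tested. KCNMB4, the β4 subunit of BK channels, lay at 10.51, 7.79, 7.84, 7.53 and 7.88 in glaucoma and at 8.51, 8.33, 8.39, 9.25 and 8.74 in health. Glaucoma 1 was the highest of the 10 retinas, and the other 4 glaucomatous retinas were below every healthy one. The difference was -0.33 (adjusted p = 0.684) with glaucoma 1 and -0.88 (adjusted p = 0.00831) without it.

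**Figure D4:**
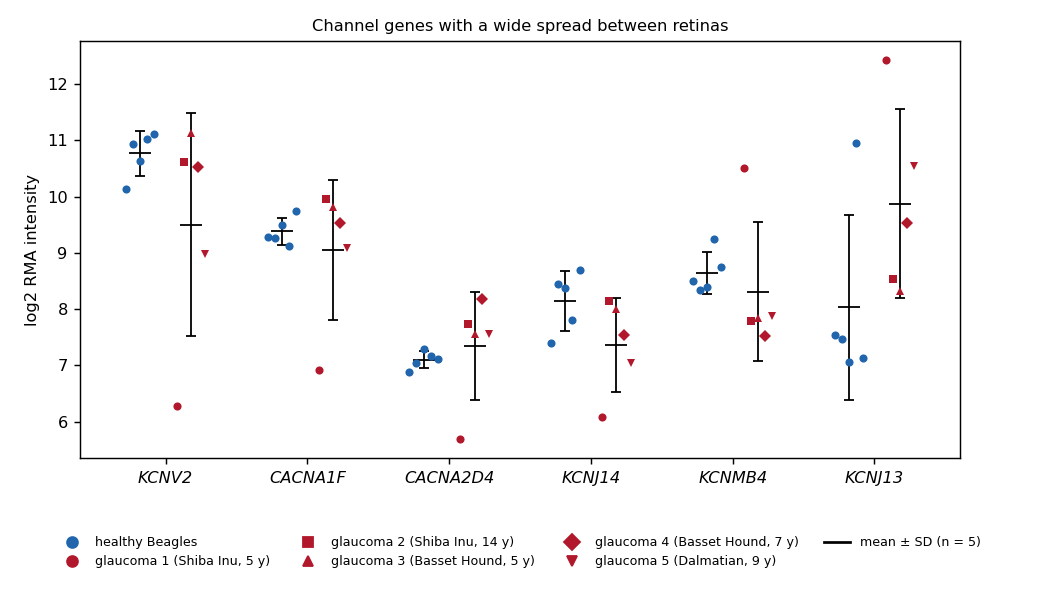
Log2 RMA intensity of 6 channel genes with a wide spread in each of the 5 glaucomatous and 5 healthy retinas, with a symbol for each glaucoma dog, blue points for the Beagles, and the group mean and SD as line and bar. Glaucoma 1, the red circle, is lowest for KCNV2, CACNA1F, CACNA2D4 and KCNJ14 and highest for KCNMB4 and KCNJ13, and healthy 4 is the highest healthy retina for KCNJ13 and KCNMB4.

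Proteins that work with these channels were compared through lists of their genes. Of 7 tested anchors and modifiers of sodium channels 3 were lower, 1 was higher and 3 did not pass. FGF12 and FGF14, intracellular factors that bind sodium channels at the axon initial segment, fell by 1.52 (SE 0.14, adjusted p = 8.79e-05) and by 1.36 (SE 0.21, adjusted p = 0.00168). DPP6, which speeds Kv4 channels together with the KChIP proteins, fell by 0.89 (SE 0.12, adjusted p = 0.000919), while DPP10 did not pass (-0.45, adjusted p = 0.207), and DPP6 was the 1 of 3 tested potassium channel partners called. FGF12 and DPP6 had no glaucomatous retina above 7 and were tested because their healthy retinas were, as RYR2 was. FKBP1B, calstabin 2, which binds and steadies RYR2, lay at 8.21, 8.35, 8.65, 8.55 and 7.98 in glaucoma and at 10.45, 10.28, 10.38, 9.98 and 9.91 in health. It fell by 1.85 (SE 0.16, adjusted p = 7.1e-05), with no overlap. Of the 5 tested partners of release channels 2 were lower, FKBP1B and the calmodulin gene CALM2 (-0.36, adjusted p = 0.0149), and 1, SRI, was higher. Among calcium pumps and exchangers 1 of 3 tested genes was lower, ATP2A2, which encodes SERCA2 and refills the stores (-0.92, adjusted p = 0.0455), and the plasma membrane pump gene ATP2B4 did not pass (0.80, adjusted p = 0.0594). The store-operated entry genes gave 0 calls by limma in 4 tested (1 lower and 1 higher before adjustment), with STIM2 at -0.40 (adjusted p = 0.0608) and STIM1 at 0.45 (adjusted p = 0.0802), and the sodium pump genes 0 in 3 (2 lower before adjustment), with ATP1B2 at -0.26 (adjusted p = 0.137) and ATP1B1 at -0.82 (adjusted p = 0.147). Of 5 tested genes for other cation channels 1 was lower: TRPM1, the transduction channel of ON bipolar cells, which also stands on the bipolar marker list, fell by 2.78 (SE 0.56, adjusted p = 0.00701). MCOLN1, a lysosomal channel, did not pass (-0.43, adjusted p = 0.0826).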

How the data were processed

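Retinal RNA of 5 glaucoma and 5 healthy dogs was hybridized to 1 array per dog. The authors normalized the arrays with RMA, and the intensity values were deposited on a linear scale. The log2 of these deposited values was taken here. Of 42924 probe sets, without 111 array controls, the 18416 above 7 in at least 2 samples, the minimum of the study's methods, were compared between the groups in limma (version 3.58.1, R version 4.3.3). P-values were adjusted over all of them by Benjamini-Hochberg. The tested probe set with the largest mean over the 10 samples stood for its gene (7900 genes), and without the filter the one with the largest mean of all. Symbols came from the platform annotation, and 112 of 118 channel gene identifiers were found in the RefSeq table. Groups, breeds and ages came from the sample labels, and ages of some dogs differ from the study's own list. The members, marker and partner lists were chosen with earlier results of these data known. Values per retina were given for the largest changes, and for the smallest adjusted p and largest difference that did not pass in each class. KCNE3 was added after its values were seen. Of each partner list the genes with the smallest adjusted p were named. The alternatives were other filters, normalizations, tests, covariates, probe set rules and samples left out. The replicate numbers did not pair the dogs: same-numbered retinas correlated at -0.24 to 0.07 in their deviations from the group means. Scripts were tested on simulated data. Arrays have no read depth, and their number limits the precision.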

Additional observations from a re-analysis of the deposited data

Results flagged for a closer look

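In 4 of 64 groups of 5 retinas examined (32 channel genes in each group), 1 retina lay far from the others by Dixon's ratio, the gap to the nearest retina divided by the group's range, with a critical value of 0.71. Chance alone flags about 1 in 20 groups. For CACNA1F the ratio of glaucoma 1 was 0.714, at 6.91 against 9.08 to 9.95 in the other glaucomatous retinas. For CACNA2D4 the ratio of glaucoma 1 was 0.751, at 5.69 against 7.55 to 8.17. For KCNMB4 the ratio of glaucoma 1 was 0.88, at 10.5 against 7.53 to 7.88. For KCNJ13 the ratio of healthy 4 was 0.877, at 10.9 against 7.06 to 7.54 in the other healthy retinas.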

How the results depend on the processing

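All 11 genes remained lower with limma's array weights, with its trend and robust settings, with quantile normalization, other probe set rules, a minimum of 6, and without glaucoma 3 or the Basset Hounds. Calcium channel genes were 3 in place of 5 with age as a covariate, with values above 7 in at least 5 samples, or at a 2-fold minimum. A minimum of 6 gave 17 genes lower, 10 of them potassium channels, as with no filter (16 and 10). For the alternatives other than no filter, the share over all genes was not counted. The exact Wilcoxon test gave 0 lower, for potassium and calcium too. Genes higher were 2 with array weights (CACNA2D4, KCNB2), 2 without glaucoma 1 and healthy 4 together (CACNA2D4, KCNJ13) and 1 without the Shiba Inus (CACNA2D4). Leaving out 1 retina gave 8 to 12 genes lower, 5 to 8 potassium, 3 to 5 calcium and 0 to 1 higher. Calcium genes were 3 without healthy 1 or healthy 5, losing CACNB2 and RYR2, and 1 gene was higher without glaucoma 1 (CACNA2D4) or healthy 4 (KCNJ13). KCNAB2 was lost without glaucoma 5 or healthy 1, 2 or 5. The age covariate lost CACNB2 and CACNB3 (adjusted p = 0.207 and 0.0634), and gained KCNH6 (adjusted p = 0.0262), its slope resting on the glaucoma dogs alone. The ratio of 3' to 5' signal as a covariate lost CACNB2 (adjusted p = 0.0618) and centring the arrays KCNAB2 (adjusted p = 0.0509). The replicate block gave 9 genes lower, losing CACNB2 (adjusted p = 0.071) and KCNAB2 (adjusted p = 0.0955), and 0 of 5 glaucoma retinas correlated best with their own number. No direction reversed among called genes. Why these calls changed was not tested, except where a gene lost its tested probe set. RYR2 did so without healthy 1 or healthy 5, and both RYR2 and CACNB2 with values above 7 in at least 5 samples. With 5 dogs a group, breed, age and treatment cannot be told apart from glaucoma, and 88 dim channel genes limit what absence of a call shows.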
